A study of Mus musculus with 18 samples.

Results

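Chronic social defeat stress (CSDS) was compared with control conditions in 11 hippocampal RNA libraries, each from 1 mouse, out of the 18 libraries of the series. The CSDS libraries are replicates 1 to 6 of that group and the control libraries are replicates 1, 3, 4, 5 and 6. Control replicate 2 was left out because it carries markers of neocortex in place of hippocampus. All mice were adolescent wild-type C57BL/6J males. Control mice had no treatment, and CSDS mice were exposed as intruders to a resident mouse. Another group of 6 mice was defeated in the same way and also trained aerobically. Its libraries entered the filter on low counts, the scaling and the estimate of the spread between mice, and are not compared here. The tissue is whole hippocampus, so fewer cells of a type and less RNA per cell cannot be told apart. Only male mice were used, and control mice are labelled as untreated, so effects of the single steps of the procedure cannot be told apart.

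The hippocampus encodes place, context and episodic memory, and it helps to restrain the hormonal stress axis. Its excitatory neurons form a chain from the granule cells of the dentate gyrus through the pyramidal cells of fields CA3 and CA1 to the subiculum, under the control of GABAergic interneurons. The dentate gyrus keeps neural stem cells after birth and carries a high density of glucocorticoid receptors. In rodents, repeated defeat by an aggressive resident raises corticosterone and can lead to social avoidance, and the procedure is widely used as a model of depression. Glucocorticoid target genes, immediate early genes, myelin, synaptic and inflammatory genes are among those most often examined in this tissue after stress.

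Total estimated counts were 19054527 to 24136591 per library over these 11 libraries, and 16833 genes passed the filter on low counts. Depth, number of genes detected, share of counts in mitochondrially encoded genes, share in the 100 highest genes and slope of gene level on transcript GC content each overlapped between the groups (exact two-sided permutation tests over all 462 regroupings, p = 0.558 to 0.922, adjusted p = 0.922 for each). Prox1, a transcription factor that fixes the identity of dentate granule cells, was at 83.5 to 112 CPM in the 11 libraries and at 10.4 CPM in control 2. CPM is the estimated count normalised for depth after TMM scaling. C1ql2, a synaptic organiser made by granule cells, was at 72.5 to 118 CPM in the 11 libraries and at 0.409 CPM in control 2. The remaining 11 libraries therefore carry the dentate markers that the tissue label calls for. They were not all alike in neighbouring tissue. Controls 1 and 3 held markers of thalamus, and CSDS 2, 4 and 6 held little choroid plexus, and both are described with the results that they touch.

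No gene passed the test between CSDS and control mice. Of 16833 genes, 0 (0%) had a Benjamini-Hochberg adjusted p under 0.05 in edgeR's quasi-likelihood test, and no adjusted p was below 0.99972. Before adjustment, p lay under 0.05 for 401 genes (2.38%), of which 238 (1.41%) were higher and 163 (0.968%) lower in CSDS mice. With plain library sizes in place of TMM scaling the split was 176 higher and 246 lower, so the balance between the directions depends on the scaling. DESeq2 and limma voom also called 0 genes, with 594 and 2626 genes at an unadjusted p under 0.05. Limma voom used the same filter, so its 2626 genes are out of the same 16833, against 401 with edgeR. DESeq2 was run without that filter. The share of genes with a small unadjusted p thus depended strongly on the method. Genes whose 6 CSDS values all lay above or all below the 5 control values numbered 57 (0.339%), 35 higher (0.208%) and 22 lower (0.131%). A log2 fold change above 0 was found for 53.4% of genes, and this share was 44.8% with plain library sizes. Everything named below as higher or lower is a direction that did not pass this test.

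The differences were small for most genes. The log2 fold change of CSDS against control had a median of 0.01 and ran from -0.31 at the 5th percentile to 0.37 at the 95th. Its absolute value had a median of 0.0872, against a median standard error of 0.157. A change of 1.25-fold or more was estimated for 1829 genes (10.9%), of 1.5-fold or more for 596 (3.54%) and of 2-fold or more for 124 (0.737%). The 95% interval of the fold change lay within 1.5-fold in both directions for 11478 genes (68.2%) and within 2-fold for 14733 (87.5%). It lay within 1.25-fold for 5055 genes (30.03%). For most genes the interval thus excluded a difference of 1.5-fold, while for fewer genes it excluded a difference of 1.25-fold.

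**Figure D1:**
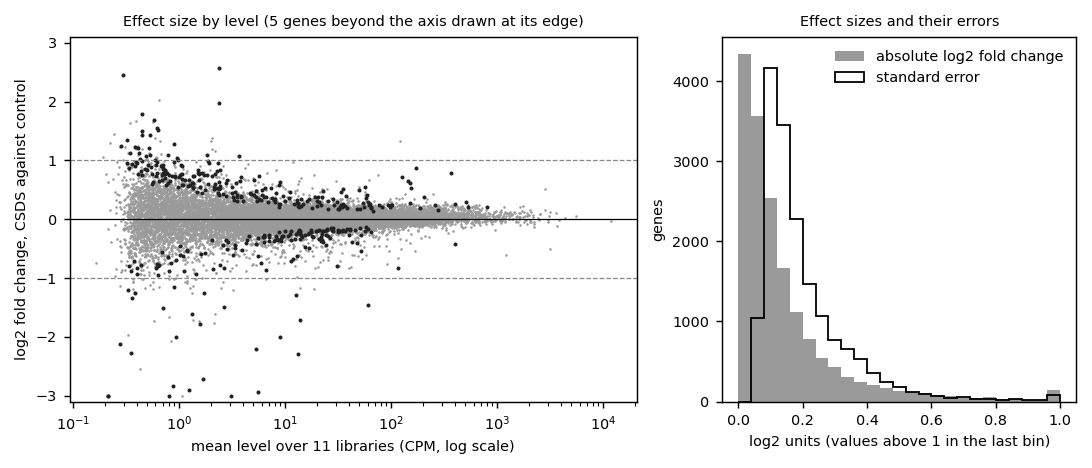
The left plot gives the log2 fold change of CSDS against control for 16833 genes by their mean level in CPM on a log axis, with genes at an unadjusted p under 0.05 in black and dashed lines at 2-fold. The right plot gives the number of genes by absolute log2 fold change (grey) and by standard error (black outline). The large estimates lie among the low genes, and the errors are on the whole larger than the fold changes.

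The size of the estimates followed the level of the gene. Among 2068 genes with a mean under 1 CPM, the median absolute log2 fold change was 0.27 with a median standard error of 0.389, and 82 of the 124 genes at 2-fold or more were in this class. Among 4749 genes at 1 to 10 CPM the medians were 0.135 and 0.216, and 35 genes reached 2-fold. Among 7777 genes at 10 to 100 CPM they were 0.0636 and 0.122, with 6 genes at 2-fold or more. Among the 2239 genes at 100 CPM or more they were 0.0547 and 0.113, and 1 gene reached 2-fold. The error exceeded the effect at every level, and both shrank as the level rose.

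Gene type and GC content also ordered the estimates. Protein-coding genes (14696) had a median log2 fold change of 0.01 and a median absolute value of 0.079. Long noncoding genes (1249) had a median of 0.09, with 64.1% above 0 and 5.44% at an unadjusted p under 0.05. With genes divided by transcript GC content into 5 bins of equal size, the share above 0 was 45.8%, 42.1%, 48.2%, 57.7% and 71.9% from the lowest to the highest bin, and the median in the highest bin was 0.07. The GC slope of a library (log2 CPM per 10 points of GC) ran from -0.173 to 0.209 in controls and from -0.251 to 0.185 in CSDS mice. The slopes of the groups overlapped, and CSDS 4 had the lowest and control 4 the highest. Transcript length made little difference, with medians of 0.00 to 0.02 over 5 bins.

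Libraries of different groups were no further apart than libraries of 1 group. The root-mean-square difference in log2 CPM over all tested genes had a median of 0.547 over the 10 pairs of controls, 0.555 over the 15 pairs of CSDS mice and 0.551 over the 30 pairs between groups. The principal components with the largest shares of the variance held 26.1%, 20.3%, 10.4% and 8.39% of it, and the groups overlapped on each. On the component with the largest share, controls 4 and 6 and CSDS 3 lay at the low end and controls 1 and 3 and CSDS 4 at the high end. CSDS 2 and 6 were highest on the next.

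**Figure D2:**
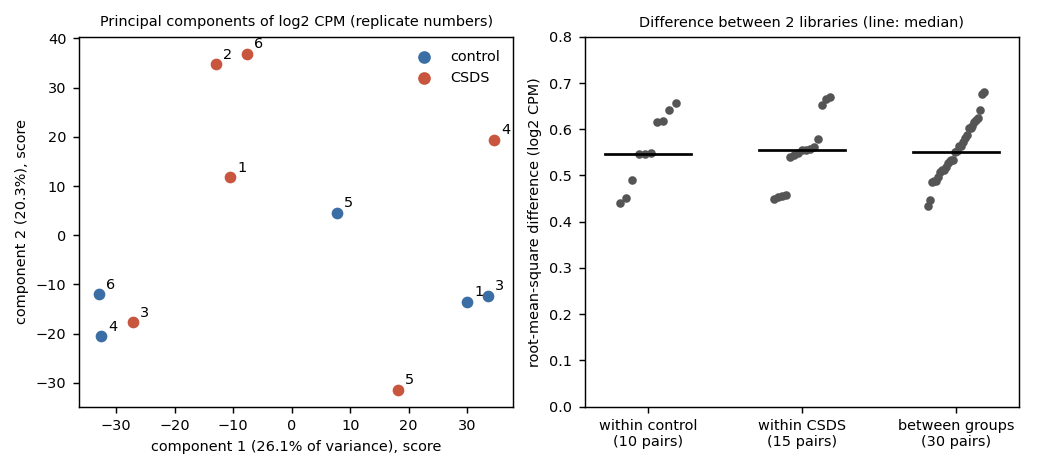
The left plot places the 11 libraries, numbered by replicate, by their scores on the principal components that hold 26.1% and 20.3% of the variance of log2 CPM. The right plot gives the root-mean-square difference in log2 CPM of every pair of libraries, with medians of 0.547, 0.555 and 0.551 within control, within CSDS and between groups.

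The 12 genes with the smallest p on the lower side included Tnnt1, Vipr2, Shox2 and Rab37, whose values were high in controls 1 and 3 alone and are given with the thalamic markers. The others are described here. Sgk1 encodes a kinase that is induced by glucocorticoids and regulates ion channels. It was at 162, 199, 169, 108 and 127 CPM in controls 1, 3, 4, 5 and 6, and at 69.8 to 110.1 CPM (median 79.5) in CSDS mice. Only control 5 lay within the range of the CSDS mice. The log2 fold change was -0.82 ± 0.19 (SE, 5 against 6 mice, 95% interval -1.21 to -0.43, edgeR adjusted p = 0.99972), and -0.64 without controls 1 and 3. Errfi1 encodes a feedback inhibitor of the epidermal growth factor receptor that glucocorticoids also induce. It was at 55.2, 56.6, 53.7, 58.4 and 48.9 CPM in controls and at 37.1 to 48.8 CPM (median 40.7) in CSDS mice, with no overlap. Its log2 fold change was -0.40 ± 0.09 (edgeR adjusted p = 0.99972, with the smallest p of all genes before adjustment), and it ran from -0.45 to -0.38 when each library was left out in turn.

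Arl4d, a small GTPase of the plasma membrane listed with the immediate early genes, was at 15.0, 19.8, 16.3, 13.96 and 9.74 CPM in controls and at 7.36 to 11.4 CPM (median 9.06) in CSDS mice. Control 6 alone lay among the CSDS mice. The log2 fold change was -0.68 ± 0.19, and -0.52 without controls 1 and 3. Plekhf1, a lipid-binding protein of endosomes and lysosomes, was at 7.15, 6.30, 9.24, 6.28 and 5.17 CPM against 3.38 to 5.50 CPM (median 4.35). Again only control 6 overlapped with CSDS mice (-0.62 ± 0.16). Polk, a polymerase that copies past damaged DNA, was at 8.56 to 9.69 CPM in controls and 5.34 to 8.39 CPM in CSDS mice. Cep76, a centriole protein, was at 5.72 to 6.79 against 3.80 to 5.28 CPM. The groups did not overlap for these last 2 genes (-0.38 ± 0.12 and -0.42 ± 0.13). Tex10, a factor of ribosome assembly (-0.31 ± 0.10), and the membrane protein gene Mansc1 (-0.37 ± 0.12) followed, with overlap.

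On the higher side, the smallest p belonged to Msl3l2, a copy related to a chromatin reader of the X chromosome dosage machinery of flies. It was at 16.7, 14.5, 18.6, 18.1 and 13.8 CPM in controls and at 19.3 to 23.1 CPM (median 21.1) in CSDS mice, with no overlap (0.37 ± 0.09, edgeR adjusted p = 0.99972). Reads of this gene and of its parent may be hard to tell apart, so its value is uncertain. Inha, a subunit of the inhibin hormones that oppose activins, was at 5.30, 4.14, 5.18, 4.50 and 5.34 CPM in controls and at 5.71 to 8.09 CPM (median 6.86) in CSDS mice. All CSDS mice lay above all controls (0.50 ± 0.13). Arhgap25 was at 2.47 to 2.92 CPM in controls and at 3.05 to 4.56 CPM in CSDS mice, without overlap (0.62 ± 0.15). Control 2 was at 15.5 CPM for Arhgap25, and with control 2 kept the log2 fold change was -0.24. Emid1, a secreted matrix protein, was at a low level, with 2.26 to 3.51 CPM in controls and 3.54 to 5.57 CPM in CSDS mice. The groups were barely apart (0.65 ± 0.18). Plpp5, a lipid phosphatase (0.33 ± 0.10), was also without overlap. In Plpp5 control 1 stood apart at 13.3 CPM, while the other controls were at 10.8 to 11.05 CPM and CSDS mice at 13.6 to 15.3 CPM.

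Zbtb16, a transcription factor that glucocorticoids induce in many tissues, was at 39.4, 38.7, 48.9, 48.1 and 50.8 CPM in controls and at 48.3 to 76.2 CPM (median 68.0) in CSDS mice. CSDS 4 was the lowest of its group and the only one within the control range. The log2 fold change was 0.55 ± 0.15, opposite in sign to that of Sgk1 and Errfi1, which respond to the same hormones. Kcnj2, the inward rectifier channel that holds the resting potential, was at 6.33, 7.36, 5.77, 8.37 and 6.44 CPM against 7.91 to 13.9 CPM (median 10.3). Control 5 overlapped with CSDS 2 and 6 (0.58 ± 0.16). Pantr2, a long noncoding RNA (0.77 ± 0.21), and Csf2ra, a receptor chain for a myeloid growth factor (0.54 ± 0.16), were at low levels with overlap. So was Drd1, the D1 dopamine receptor (0.72 ± 0.22). Hs3st2 was at 5.11 to 9.99 CPM in controls and at 8.91 to 15.4 CPM in CSDS mice, with overlap (0.63 ± 0.20). Control 2 was at 46.9 CPM for Hs3st2, and with control 2 kept the log2 fold change was -0.34.

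**Figure D3:**
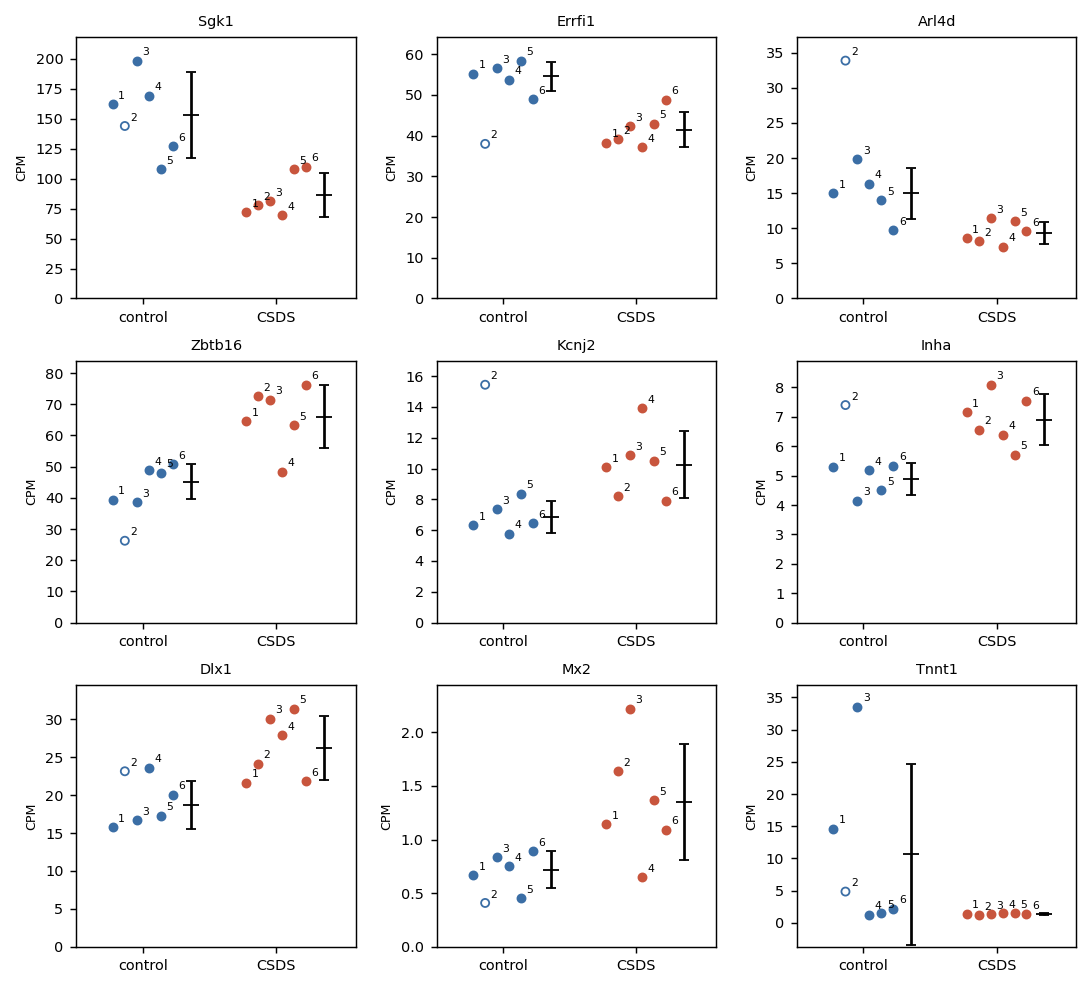
Level in CPM of 9 genes in each mouse, numbered by replicate, with the mean and SD of each group in black beside the points. The open circle is control 2, which is in neither the mean nor the comparison. Sgk1, Errfi1 and Arl4d lie lower and Zbtb16, Kcnj2, Inha, Dlx1 and Mx2 higher in most CSDS mice, while Tnnt1 is set by controls 1 and 3 at 14.6 and 33.6 CPM.

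The upstream sequences of Errfi1 and Arl4d are shown because both hold the motif TGACGTCA, the cyclic AMP response element (CRE) bound by CREB, a factor that responds to neuronal activity. They end at the base before the transcription start, run 5′ to 3′ on the strand of the gene, and come from RefSeq on GRCm38.p6. Capitals mark the CRE and, in Errfi1, also TATAAA. The stretches are chr4:150854930-150855069 on the plus strand for Errfi1 and chr11:101665401-101665540 on the plus strand for Arl4d.
Errfi1: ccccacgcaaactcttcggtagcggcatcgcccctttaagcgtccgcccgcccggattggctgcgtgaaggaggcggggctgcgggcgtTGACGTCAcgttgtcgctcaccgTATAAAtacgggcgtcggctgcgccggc
Arl4d: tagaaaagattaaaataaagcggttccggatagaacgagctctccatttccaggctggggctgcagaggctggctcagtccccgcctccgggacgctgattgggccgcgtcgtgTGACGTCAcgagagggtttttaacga
Of 15446 promoter windows, which reach from 250 bases before to 50 after a start, 2.81% hold a CRE on either strand. Counted by gene, a CRE is held by 3.37% of tested genes with a window and by 5 of the 26 immediate early genes with one. The 407 tested genes with a CRE had a median log2 fold change of 0.01 and a median absolute value of 0.0741, against 0.01 and 0.0799 for all 12068 tested genes with a window. The motif did not go with larger differences or with a direction over all genes. The other motifs searched on both strands were AP-1 (TGANTCA, 5.26% of windows), the E-box of clock factors (CACGTG, 9.38%), the Sp1 box (GGGCGG, 59.1%), TATAAA (7.52%) and the glucocorticoid response element (0.356%). Genes that hold them had medians of 0.00 to 0.01, apart from -0.03 over 50 genes with the glucocorticoid response element. A match is a run of letters and does not show that a factor binds there. Errfi1 and Arl4d were taken from the genes with the smallest p on the lower side.

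Broad function was examined through 53 gene classes with 2211 tested members. Since 0% of all genes passed the test, 0 members of any class did. The median log2 fold change was above 0 in 31 classes and below 0 in 22. It was smaller in size than 0.1 in 41 classes, and 0.1 to 0.2 in 8. It was 0.2 or more in 4, which are interferon-stimulated genes and the markers of choroid plexus, thalamus and blood cells. The level of a class in a mouse, taken as the mean log2 CPM of its members, overlapped between the groups in each of the 53. It differed by 1 SD or more in 3, which are interneuron, neurogenesis and circadian clock genes. Without controls 1 and 3, which are described with the thalamic genes, the median changed sign in 18 classes.

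**Figure D4:**
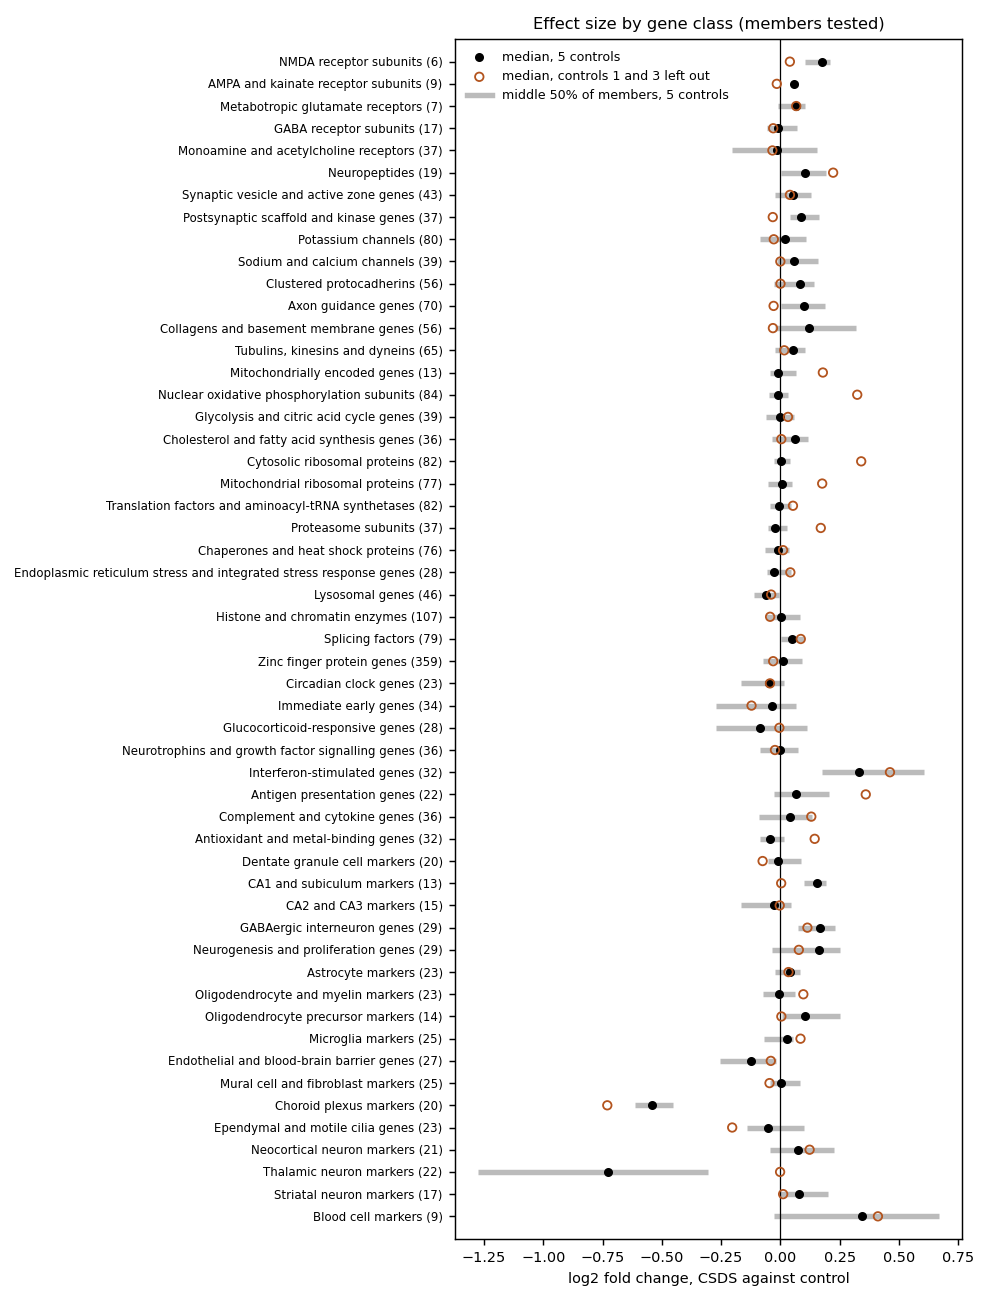
Median log2 fold change of CSDS against control in 53 gene classes, with the number of tested members in brackets. Black points use 5 controls, grey bars span the middle 50% of members, and open circles give the median with controls 1 and 3 left out. Most black points lie near 0, and open circles lie apart from them for thalamic markers (-0.73 and -0.00) and for ribosomal (0.00 and 0.34) and nuclear respiratory chain genes (-0.01 and 0.32), among others.

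Among receptors of excitatory transmission, the 6 tested NMDA receptor subunits, which pass calcium and start synaptic plasticity, were all on the higher side in CSDS mice (median 0.18, against 0.01 and 53.4% for all genes). Grin2b, the subunit abundant in young synapses, was at 476, 406, 478, 508 and 562 CPM in controls and at 496 to 645 CPM (median 569) in CSDS mice. The ranges overlapped (0.21 ± 0.10). Without controls 1 and 3 the NMDA median was 0.04. Of 9 AMPA and kainate subunits 7 were higher (median 0.06), and 4 without those controls (median -0.02), among them the kainate receptor gene Grik3 at 47.1 to 59.1 CPM in controls and 51.9 to 75.5 CPM in CSDS mice (0.29 ± 0.10). The 7 metabotropic receptors had a median of 0.07.

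Postsynaptic scaffold and kinase genes were higher in 32 of 37 members (median 0.09), and in 11 of 37 without controls 1 and 3 (median -0.03). Synaptic vesicle and active zone genes were higher in 29 of 43 (median 0.05), and in 27 of 43 without those controls (median 0.04). Axon guidance genes, which steer growing axons and remodel synapses, were higher in 52 of 70 (median 0.10, -0.03 without controls 1 and 3). Among them, the semaphorin gene Sema4c, was at 10.9 to 14.3 CPM in controls and 15.5 to 18.1 CPM in 5 CSDS mice, with CSDS 5 at 11.8 CPM (0.34 ± 0.11). Clustered protocadherins, which give neurons their surface identity, were higher in 40 of 56 (median 0.08, 0.00 without controls 1 and 3). Their sequences are alike and reads may have been divided among them, so single values are uncertain. Without controls 1 and 3 the medians of postsynaptic, axon guidance and protocadherin genes were thus near or below 0, while that of synaptic vesicle genes stayed positive.

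Inhibitory transmission had no common direction at its receptors in the 11 libraries. Of 17 GABA receptor subunits 8 were higher and 9 lower (median -0.01). Gabrd, the subunit of extrasynaptic receptors on granule cells and thalamic relay neurons, was at 31.0, 42.6, 23.6, 22.7 and 20.8 CPM in controls and at 18.6 to 22.9 CPM (median 20.8) in CSDS mice. Controls 1 and 3 were the highest, and the log2 fold change of -0.44 ± 0.20 was -0.11 without them. Genes of GABAergic interneurons were higher in 25 of 29 members (median 0.16). Their mean level was 4.83, 4.85, 4.89, 5.01 and 4.81 log2 CPM in controls and 4.97 to 5.11 in CSDS mice. Control 5 overlapped with the CSDS mice, and the difference was 2.43 times the pooled SD.

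Dlx1, a transcription factor of interneurons, was at 15.7, 16.7, 23.7, 17.3 and 20.1 CPM in controls and at 21.6 to 31.4 CPM (median 26.0) in CSDS mice. Only control 4 overlapped (0.48 ± 0.15). Sp8, a factor of a subset of interneurons, was at 1.18 to 2.38 CPM against 1.18 to 5.16 CPM (0.95 ± 0.39). Slc32a1, which loads GABA into vesicles, was at 79.2 to 117 CPM against 87.7 to 126 CPM (0.24 ± 0.11). The interneuron median was 0.11 without controls 1 and 3, 0.09 without control 3 alone and 0.14 after GC correction. Markers of neighbouring striatum, which shares Dlx factors, were higher in 11 of 17 (median 0.08). Their summed level was 547 to 740 CPM in controls and 558 to 727 CPM in CSDS mice, and their part in the interneuron difference was not tested.

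Channels of excitability showed little. Potassium channel genes were higher in 46 of 80 (median 0.02) and sodium and calcium channel genes in 26 of 39 (median 0.06, -0.00 without controls 1 and 3). Neuropeptide genes were higher in 14 of 19 (median 0.10, 0.22 without controls 1 and 3) and receptors for monoamines and acetylcholine in 18 of 37 (median -0.02). Tubulin, kinesin and dynein genes were higher in 44 of 65 (median 0.05). The neuronal tubulin gene Tubb2a was at 688 to 786 CPM in controls and 724 to 1009.9 CPM in CSDS mice (0.21 ± 0.10). Growth factor genes were split, with 17 of 36 higher (median -0.00). Vgf, a secreted precursor that activity and neurotrophins induce, was at 132, 156, 204, 226 and 153 CPM against 162 to 324 CPM (median 225). All but CSDS 2 and 3 lay near or within the control range (0.38 ± 0.16). Bdnf, the main neurotrophin of hippocampal neurons, was at 19.9 to 33.2 CPM in controls and 22.2 to 35.5 CPM in CSDS mice (0.05 ± 0.14).

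Stress hormone and activity genes lay in both directions. Of 28 glucocorticoid-responsive genes 11 were higher and 17 lower (median -0.09), and an unadjusted p under 0.05 was reached by 1 of the higher and 3 of the lower ones (1.41% and 0.968% of all genes). Without controls 1 and 3 their median was -0.00. Fkbp5, a chaperone that lowers the hormone affinity of the receptor, was at 79.4 to 106 CPM in controls and 83.7 to 116 CPM in CSDS mice (0.13 ± 0.12, 95% interval -0.12 to 0.37). Nr3c1, the glucocorticoid receptor, was at 62.4 to 72.2 CPM against 55.9 to 82.2 CPM (-0.06 ± 0.11, 95% interval -0.29 to 0.18). Both intervals exclude a 1.5-fold difference.

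Of 34 immediate early genes, which neurons transcribe within minutes of firing, 16 were higher and 18 lower (median -0.04, and -0.12 with 9 of 34 higher without controls 1 and 3), and 3 lower ones had an unadjusted p under 0.05 (0.968% of all genes). Fos, a subunit of the AP-1 factor, was at 11.8, 20.6, 13.3, 16.8 and 9.15 CPM in controls and at 2.96 to 12.8 CPM (median 8.80) in CSDS mice. CSDS 4 was the lowest, and without it the next was at 7.50 CPM (-0.70 ± 0.28). Nr4a1, an orphan nuclear receptor, was at 47.5, 60.7, 75.6, 62.8 and 64.4 CPM against 28.003 to 54.9 CPM (median 41.9). Control 1 was the only control below any CSDS mouse (-0.54 ± 0.21). Npas4, a factor that activity alone induces, was at 5.73 to 7.73 CPM against 4.17 to 10.1 CPM (0.15 ± 0.22). The time between the last encounter or behavioral test and the dissection is not given in the sources used here. Circadian clock genes were higher in 7 of 23 (median -0.05), and their mean level was 5.38 to 5.53 log2 CPM in controls and 5.24 to 5.48 in CSDS mice.

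Interferon-stimulated genes, which cells switch on against viruses and in inflammation, had the largest median of the functional classes. The log2 fold change was above 0 in 31 of 32 members (96.9%, against 53.4% of all genes), with a median of 0.33. An unadjusted p under 0.05 was reached by 2 of the higher members (1.41% of all genes). The mice did not fall into groups by treatment. The mean level was 2.02, 2.01, 1.41, 1.61 and 2.32 log2 CPM in controls 1, 3, 4, 5 and 6, and 2.48, 2.23, 2.87, 1.39, 1.54 and 2.49 in CSDS 1 to 6. CSDS 1, 2, 3 and 6 were at or near the top of the control range or above it, and CSDS 4 and 5 were near its bottom. The class median was 0.46 without controls 1 and 3 and 0.37 after GC correction, and it ran from 0.21 to 0.46 when each library was left out in turn.

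Irf7, the factor that amplifies the interferon response, was at 8.18, 5.90, 2.84, 2.55 and 8.90 CPM in controls. It was at 14.3, 12.3, 18.7 and 11.5 CPM in CSDS 1, 2, 3 and 6, and at 2.18 and 2.07 CPM in CSDS 4 and 5 (0.84 ± 0.49). CSDS 4 and 5 were below every control and the other CSDS mice above every control. Mx2, an antiviral GTPase, was at 0.669, 0.837, 0.752, 0.455 and 0.890 CPM against 0.648 to 2.22 CPM (median 1.25), with CSDS 4 alone inside the control range (0.90 ± 0.29). Rsad2, an antiviral enzyme, was at 1.25 to 1.63 CPM against 1.32 to 3.19 CPM (0.60 ± 0.28).

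The upstream sequences of Ifit1 and Isg15 are shown because both hold the interferon-stimulated response element (ISRE), searched on both strands as GAAA, any 2 bases, GAAA. Ifit1 encodes a protein that binds foreign RNA, and Isg15 a small protein that is attached to others like ubiquitin. Capitals mark the motif, which in Ifit1 lies on the opposite strand and in Isg15 includes overlapping copies. The stretches end before the transcription start on GRCm38.p6 (RefSeq), at chr19:34640749-34640888 on the plus strand and chr4:156200819-156200958 on the minus strand, and run 5′ to 3′.
Ifit1: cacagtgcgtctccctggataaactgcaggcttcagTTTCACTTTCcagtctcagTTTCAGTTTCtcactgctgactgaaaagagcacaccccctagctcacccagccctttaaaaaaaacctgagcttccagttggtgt
Isg15: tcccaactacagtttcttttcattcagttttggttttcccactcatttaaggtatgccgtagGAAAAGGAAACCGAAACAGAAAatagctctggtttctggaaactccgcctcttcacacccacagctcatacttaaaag
An ISRE is held by 3.02% of all windows, by 3.69% of tested genes with a window and by 14 of the 22 interferon-stimulated genes with one. Those 14 were all on the higher side (median 0.30), as were 7 of the 8 without it (median 0.36). The 445 tested genes with an ISRE had a median of 0.01, the same as all genes with a window. Within the class, genes with and without the motif thus had similar medians. Ifit1 was at 2.62, 2.07, 1.84, 2.46 and 4.79 CPM in controls and at 1.62 to 8.83 CPM (median 4.26) in CSDS mice (0.65 ± 0.40). Isg15 was at 0.669 to 3.04 CPM against 1.47 to 3.93 CPM (0.46 ± 0.36). CSDS 4 and 5 were the lowest CSDS mice for both. Ifit1 and Isg15 were picked with their values known.

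Other immune classes had smaller medians than the interferon class. Antigen presentation genes were higher in 15 of 22 (median 0.07), and the median was 0.36 without controls 1 and 3. The 3 members with the smallest p belong to the class II pathway, which presents peptides from outside the cell, and had negative values. Cd74, the chaperone of class II molecules, was at 9.004, 11.9, 7.15, 4.46 and 11.02 CPM in controls and at 2.08 to 7.86 CPM (median 4.004) in CSDS mice, with overlap (-0.87 ± 0.32). H2-Ab1 (-0.70 ± 0.35) and H2-Aa (-0.59 ± 0.34), chains of the class II dimer, overlapped as well. Without CSDS 2, 4 and 6 their values were -0.25 and -0.22, and that of H2-Aa was -0.27 without controls 1 and 3. Complement and cytokine genes were higher in 20 of 36 tested members (median 0.04, 0.13 without controls 1 and 3), and 54 of the 90 listed were too low to test. Microglia markers were higher in 17 of 25 (median 0.03), and the interval of 21 of them lay within 1.5-fold. Antioxidant and metal-binding genes were higher in 10 of 32 (median -0.05), and in 26 of 32 without controls 1 and 3 (median 0.14).

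Energy metabolism and protein synthesis had medians at 0 that rested on which controls were used. Nuclear genes of oxidative phosphorylation were higher in 38 of 84 (median -0.01), and in 82 of 84 without controls 1 and 3 (median 0.32). Cytosolic ribosomal protein genes were higher in 44 of 82 (median 0.00), and in 81 of 82 without them (median 0.34). Their mean level was 7.30, 7.23, 6.51, 6.91 and 6.13 log2 CPM in controls 1, 3, 4, 5 and 6, and 6.77, 6.73, 6.58, 7.18, 7.24 and 6.67 in CSDS 1 to 6. Controls 1 and 3 were about as high as the highest CSDS mice, and controls 4 and 6 below all of them. Rps2, a protein of the small subunit, was at 469, 454, 374, 451 and 272 CPM against 402 to 469 CPM (0.12 ± 0.12). The oxidative phosphorylation genes had the same order of controls, from 6.45 log2 CPM in control 1 to 5.34 in control 6, against 5.77 to 6.39 in CSDS mice. The 13 mitochondrially encoded genes had a median of -0.01, and 0.18 without controls 1 and 3.

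Mitochondrial ribosomal protein genes were higher in 41 of 77 (median 0.01), and in 71 of 77 without controls 1 and 3 (median 0.18). Among them, Mrps2 was at 25.9, 26.5, 25.3, 26.0 and 27.5 CPM in controls and at 21.0 to 25.2 CPM (median 23.8) in CSDS mice, without overlap but with a small difference (-0.17 ± 0.07). Proteasome subunits were higher in 15 of 37 (median -0.02, 0.17 without controls 1 and 3), translation factors and tRNA synthetases in 37 of 82 (median -0.01) and chaperones in 31 of 76 (median -0.01). Glycolysis and citric acid cycle genes were higher in 19 of 39 (median -0.00), and the intervals of all 39 lay within 1.5-fold. Among them Ldha, which makes lactate, was at 261, 245, 260, 290 and 254 CPM against 285 to 300 CPM (0.15 ± 0.07). Lipid synthesis genes were higher in 24 of 36 (median 0.06), with the cholesterol enzyme gene Lss at 27.4 to 32.4 CPM against 31.6 to 35.6 CPM (0.18 ± 0.09).

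Lysosomal genes, which encode the hydrolases of the degradative compartment, were lower in 35 of 46 members (median -0.06). Without controls 1 and 3 the lysosomal median was -0.04 (16 of 46 higher). Without the CSDS libraries that held little choroid plexus it was 0.02 (24 of 46 higher), so the direction was not kept. Lipa, the acid lipase of lysosomes, was at 25.4, 25.1, 23.5, 22.5 and 22.0 CPM in controls and at 15.3 to 25.1 CPM (median 18.2) in CSDS mice. CSDS 5 was the only CSDS mouse inside the control range (-0.34 ± 0.13). Genes of endoplasmic reticulum stress were lower in 18 of 28 (median -0.03, and 0.04 with 19 higher without controls 1 and 3), with Edem1, which sends misfolded proteins to degradation, at -0.19 ± 0.08. In the nucleus, splicing factor genes were higher in 59 of 79 (median 0.05) and in 60 of 79 without controls 1 and 3 (median 0.09). Srsf2, which promotes exon inclusion, was at 89.0, 93.4, 93.3, 101 and 80.0 CPM against 90.3 to 118 CPM (median 110.4). CSDS 5 alone was inside the control range (0.24 ± 0.09). The splicing regulator gene Hnrnpm had a log2 fold change of 0.21 ± 0.09. Histone and chromatin enzyme genes (55 of 107 higher, median 0.00) and zinc finger genes (191 of 359 higher, median 0.01) had no common direction.

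Long noncoding RNA included 1 of the abundant genes with a large estimate. Meg3, an imprinted RNA of neurons, was at 354, 239, 210, 243 and 257 CPM in controls and at 317 to 729 CPM (median 379.5) in CSDS mice (0.79 ± 0.28). Control 1 overlapped with CSDS mice, and CSDS 6 and 3 were the highest. Lars2, the mitochondrial leucyl-tRNA synthetase, had a log2 fold change of 0.87 ± 0.37, which rested on CSDS 4 at 604 CPM. The other CSDS mice were at 107 to 174 CPM and controls at 74.0 to 149 CPM, and the log2 fold change without CSDS 4 was 0.21.

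Cell type markers of the hippocampus itself differed little. Dentate granule cell markers were higher in 8 of 20 (median -0.01), CA2 and CA3 markers in 6 of 15 (median -0.03) and CA1 and subiculum markers in 11 of 13 (median 0.15, 0.00 without controls 1 and 3). The granule cell level was 5.31 to 5.65 log2 CPM in controls and 5.41 to 5.66 in CSDS mice. Neurogenesis and proliferation genes were higher in 21 of 29 (median 0.16, 0.08 without controls 1 and 3), with a level of 3.24 to 3.69 log2 CPM in controls and 3.41 to 3.72 in CSDS mice. Nes, an intermediate filament of neural stem cells, was at 14.5 to 18.7 CPM against 14.8 to 24.3 CPM (0.34 ± 0.17). Sox2, a stem cell factor that astrocytes also express, was at 28.1 to 35.8 against 32.5 to 40.1 CPM (0.16 ± 0.08). Dcx, a microtubule protein of newborn neurons, was at 9.52 to 15.0 against 10.4 to 15.5 CPM (0.08 ± 0.14).

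**Figure D5:**
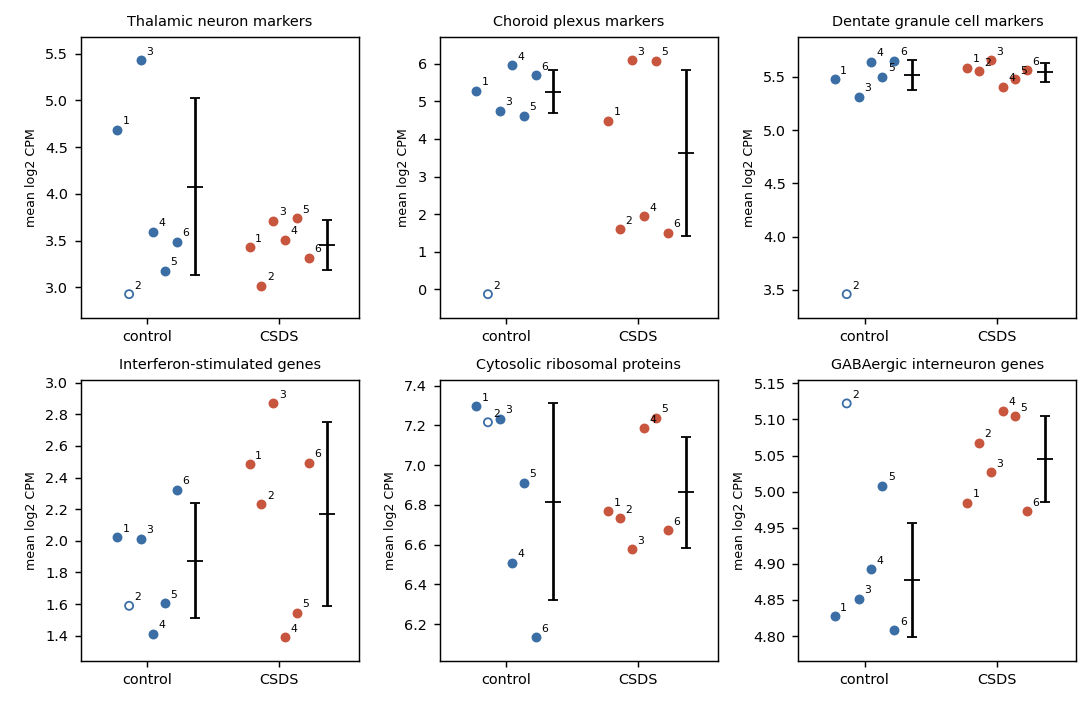
Mean log2 CPM of 6 gene classes in each mouse, numbered by replicate, with the mean and SD of each group in black. The open circle is control 2, which is in neither the mean nor the comparison and lies far below the others for dentate granule cell markers. Thalamic markers are high in controls 1 and 3, and choroid plexus markers are low in CSDS 2, 4 and 6. Interferon-stimulated genes are low in CSDS 4 and 5 and in controls 4 and 5.

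Glial markers had medians near 0, at 0.04 for astrocytes (16 of 23 higher), -0.01 for oligodendrocytes and myelin (11 of 23) and 0.11 for oligodendrocyte precursors (10 of 14). Without controls 1 and 3 the precursor median was 0.00 (7 of 14 higher) and the myelin median 0.10 (18 of 23 higher). Gfap, the filament protein of astrocytes, was at 348 to 534 CPM in controls and 427 to 523 CPM in CSDS mice (0.11 ± 0.15). Mbp, a main protein of myelin, was at 2901 to 4819 against 2832 to 4051 CPM (-0.11 ± 0.16). Endothelial and blood-brain barrier genes were lower in 22 of 27 (median -0.12, -0.04 without controls 1 and 3). The barrier transporter gene Slco1a4 was at 55.9, 57.8, 38.6, 45.4 and 47.2 CPM against 28.8 to 46.0 CPM (median 37.4), with controls 1 and 3 the highest (-0.39 ± 0.13, -0.23 without them). The endothelial factor gene Sox18 went the other way, at 8.06 to 10.7 against 9.96 to 15.3 CPM (0.47 ± 0.20). Collagen and basement membrane genes were higher in 40 of 56 (median 0.12), with Col16a1 at 0.53 ± 0.23 and Col6a3 at 1.07 ± 0.49. The collagen median was -0.03 without controls 1 and 3 and 0.33 without CSDS 2, 4 and 6.

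The largest class difference belonged to tissue next to the hippocampus. Thalamic neuron markers were lower in 20 of 22 members (median -0.73), and 7 of these had an unadjusted p under 0.05 (0.968% of all genes). Their summed level was 494 to 1542 CPM in controls and 516 to 606 CPM in CSDS mice. Tnnt1, a troponin of thalamic neurons, was at 14.6 and 33.6 CPM in controls 1 and 3, at 1.25, 1.501 and 2.20 CPM in controls 4, 5 and 6, and at 1.17 to 1.53 CPM in CSDS mice. Tcf7l2, a transcription factor of thalamic neurons, was at 28.8 and 70.0 CPM in controls 1 and 3, at 4.64 to 7.92 CPM in the other controls and at 4.04 to 5.93 CPM in CSDS mice. Controls 1 and 3 stood apart from all the others, which were alike across the groups. The log2 fold change of -2.94 for Tnnt1 was -0.26 without them, that of Tcf7l2 was -2.29 and -0.39, and the class median was -0.00.

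Most of the large lower estimates at measurable levels followed the same libraries. Of 33 genes with a mean of at least 1 CPM that were 2-fold or more lower, 22 had their highest values in controls 1 and 3. Without these libraries 10 of the 33 were still 2-fold or more lower, and the median of the 33 went from -1.46 to -0.23. On the higher side 9 genes at this level reached 2-fold, and 3 of them still did without these libraries. Rab37, a GTPase of secretory granules, was at 15.2 and 24.01 CPM in controls 1 and 3 and at 1.48 to 2.80 CPM in the other 9 libraries. Synpo2, an actin-binding protein, was at 29.5 and 59.0 CPM there and at 6.04 to 9.45 CPM elsewhere. Shox2, a homeobox factor of thalamic and other neurons, was at 8.34 and 23.7 CPM there and at 0 to 0.720 CPM elsewhere. Vipr2, a receptor for vasoactive intestinal peptide, was at 4.53 and 8.94 CPM there and at 0.234 to 1.02 CPM elsewhere.

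Leaving out controls 1 and 3 did not bring out genes that passed the test. Of 17260 genes then tested, 0 had an adjusted p under 0.05, and 445 had an unadjusted p under 0.05. Of the 401 genes at an unadjusted p under 0.05 with 5 controls, 148 were still there with 3 and 395 had the same sign. Both fits use the same CSDS mice and share 3 controls, so the agreement in sign is no independent check. The spread of the log2 fold change widened, from -0.35 at the 5th percentile to 0.51 at the 95th.

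Choroid plexus markers, from the epithelium that secretes cerebrospinal fluid in the ventricles beside the hippocampus, were lower in 20 of 20 members (median -0.54). Their summed level was 3646 to 7776 CPM in controls and 231 to 11371 CPM in CSDS mice. Ttr, the thyroxine carrier of that epithelium, was at 5189, 3346, 4427, 2404 and 3529 CPM in controls and at 1656, 77.4, 6132, 149, 7938 and 50.9 CPM in CSDS 1 to 6. CSDS 2, 4 and 6 were far below all other libraries, and CSDS 3 and 5 above all controls (-0.50 ± 1.26). Kl, a membrane coreceptor for a fibroblast growth factor, was at 80.7 to 235 CPM in controls and 23.9 to 245 CPM in CSDS mice (-0.50 ± 0.67). Without CSDS 2, 4 and 6 the class was higher in 20 of 20 members (median 0.35). Ependymal and motile cilia genes had a median of -0.05, and 0.30 without these libraries. Blood cell markers were higher in 6 of 9 (median 0.34) and lower in 5 of 9 without CSDS 2, 4 and 6 (median -0.19). Neocortical markers had a median of 0.07, and -0.38 when control 2 was kept.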

How the data were processed

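As deposited by the authors, the data are 1 table of estimated counts (RSEM expected counts, not normalized), with genes in rows and libraries in columns. The submitters' processing notes name fastp, HISAT2, RSEM and GRCm38 (mm10). Not given in the sources used here are versions, step order, the annotation and whether the counting used strand, so overlapping and antisense genes are uncertain. Per the labels' protocols, RNA of integrity number 7 or more was selected for poly(A) and sequenced from stranded libraries, and every sample has the same batch label. Each library is from a separate mouse.

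Of 57180 gene identifiers, 51884 matched a symbol, and 5296 did not (0.62% of counts). Values were rounded to whole numbers, which altered 22.7% of those above 0. Genes were filtered with filterByExpr (minimum count 10, minimum total 15), scaled by TMM and tested with edgeR 4.0.16 in R 4.3.3 (quasi-likelihood F test, threshold 0.05 after Benjamini-Hochberg adjustment) over 17 libraries, without control 2, with 1 term per group. Standard errors came from the fold change and F, and 95% intervals from the matching t distribution. The log2 CPM values carry a prior count of 2. The script was tested on simulated counts. Single values per library were compared by exact permutation. All 25 pairs of libraries within a group differed by more than sampling noise (chi-square of 9.44 to 78.7 per gene).

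The comparison and the gene classes were chosen with earlier results of these data known, so classes are described by counts and medians with no set test. Of the symbols listed, 4 were not found. Named genes were drawn from the 12 in each direction with the smallest p (mean of at least 1 CPM, predicted genes left out). Others came from the 5 higher and 5 lower genes with the largest fold change (mean of at least 5 CPM). The rest came from up to 3 members of each class with the smallest p and from fixed genes. Those fixed whatever their values were Prox1, Tcf7l2, Mbp, Ttr, Gfap, Dcx, Npas4, Fos, Sgk1, Nr3c1, Fkbp5 and Bdnf. C1ql2 was named as a defining marker. The rule gave 184 genes, and not all of them are described. Alternatives were DESeq2 1.42.0 without the edgeR filter, limma voom 3.58.1 with quality weights, other scalings and filters, the 11 libraries alone, control 2 kept, a replicate block, a GC correction (98.1% of tested genes had a GC value) and leaving out each library. Leaving out controls 1 and 3, or CSDS 2, 4 and 6, was added after seeing the data.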

Additional observations from a re-analysis of the deposited data

Results flagged for a closer look

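In a group of 5 or 6 mice, a value was singled out when its gap to the nearest other value took an unusually large part of the group's range (Dixon's test at the 5% level, which chance passes in about 5% of groups). Of 254 groups examined, 10 had such a value. CSDS 5 had the lowest total count of its group (19552900 against 21535900 to 22383700 in the others), and CSDS 2 the fewest genes detected (21933). For receptors of monoamines and acetylcholine, CSDS 4 was low at a class level of 2.51 log2 CPM. For lysosomal genes, control 5 was low at 5.49 log2 CPM, and for neurogenesis and proliferation genes CSDS 6 was low at 3.41 log2 CPM. Among single genes, control 1 was high for Plpp5 (3.75 log2 CPM), CSDS 4 high for Lars2 (9.24), CSDS 5 low for Sema4c (3.57), control 4 high for Col6a3 (2.33) and CSDS 4 low for Fos (1.61). CSDS 4 and CSDS 5 also had the lowest interferon-stimulated gene levels of the CSDS mice, at 1.39 and 1.54 log2 CPM. Control 4 lay between them at 1.41 log2 CPM.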

How the results depend on the processing

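In each of 23 alternatives 0 genes had an adjusted p under 0.05, and the smallest adjusted p was 0.246, with limma voom. The number of genes at an unadjusted p under 0.05, 401 in the test as designed, was 2626 with limma voom, 964 without a filter and 224 with the replicate block, and ran from 281 (without CSDS 1) to 617 (without CSDS 5) when each library was left out. The replicate numbers did not pair the mice (correlations of same-numbered deviations -0.413 to 0.129 over 5 pairs, with 0 best matched to their own number), and the block called 0 genes. Of the class medians recomputed, 9 moved by more than the spread between mice and 1263 did not. That spread was wide in some classes. For cytosolic ribosomal genes (pooled SD 0.389) a shift from 0.00 to 0.34 without controls 1 and 3 did not count as a move. Without these controls the median changed sign in 18 of the 53 classes. The medians that moved with limma voom were -0.084 for chaperones, 0.10 for granule cell markers and 0.089 for interneuron genes. With control 2 kept they were -0.036 for metabotropic receptors, 0.14 for granule cell markers, 0.14 for CA2 and CA3 markers and -0.38 for neocortical markers. The thalamic median was -0.0015 without controls 1 and 3, and the interneuron median ran from 0.091 (without control 3) to 0.22 (without control 5). Of the recomputed values of 69 named genes, 14 changed sign and 1570 did not. The former were Bdnf (-0.043 with limma voom, -0.020 without controls 1 and 3, and -0.051 to 0.14 leaving out each library), Dcx (-0.060, -0.015 and -0.013 to 0.15 in the same order), and Gfap (-0.032) and C1ql2 (-0.056) without controls 1 and 3. The others were C1ql2 with GC correction (-0.038), Npas4 (-0.28) and Prox1 (0.065) with control 2 kept, and Ttr (0.47) and Kl (0.31) without CSDS 2, 4 and 6. Arhgap25 and Hs3st2 are outside this count, and both changed sign with control 2 kept (-0.24 and -0.34). The cause of these shifts was not tested. The median standard error of a log2 fold change was 0.157 over all genes and 0.389 below 1 CPM.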
